A study of Mus musculus with 2 samples.

Results

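The genes described here are 9 entries of the mouse microRNA annotation, out of 1973 in the tables, that lay lower in the second of 2 libraries of embryonic kidney: Mir6236, Mir6240, Mir5626, Mir2137, Mir1960, Mir6928, Mir7026, Gm23935 and Gm24245. They were picked by symbol with the ratio between the libraries already known, so that ratio is given as a description and carries no test. Small RNA was sequenced from kidneys of B6NCrl mouse embryos at day 16.5, from fragments under 30 nt, with both sexes pooled and no treatment or mutation. Replicate 1 is a pool of unstated size and replicate 2 a pool of 41 embryos, and both carry 1 donor record, so the spread between them may be partly technical. There is 1 group, so every difference is between these libraries and not between conditions.

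A microRNA is cut from a hairpin precursor and pairs with target transcripts through its seed, bases 2 to 8 of the mature strand. In the usual route the enzyme Drosha cuts the hairpin out of a longer transcript and Dicer trims it, while a mirtron is freed by splicing because an end of the hairpin is an end of an intron. Sequencing surveys also added catalogue entries that fold poorly, lie in repeated sequence or may be pieces of other RNAs, and an entry with few reads is hard to judge. Entry numbers follow the order of discovery, and a Gm symbol marks a gene model without a microRNA name. The study says nothing of the standing of these 9 entries, so the word doubtful is a working name that is set against their sequences below.

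The mature sequences of 7 of the 9 genes were matched in RefSeq on GRCm38.p6, the assembly also called mm10. They are shown because the seed, in capitals, is what would set the targets of each gene.
miR-6236: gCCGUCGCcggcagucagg
miR-6240: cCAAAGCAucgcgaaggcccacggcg
miR-5626-5p: gCCCCAUCgauuaacugcuucc
miR-5626-3p: cAGCAGUUgagugaugugacac
miR-2137: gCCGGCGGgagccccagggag
miR-1960: cCAGUGCUguuagaagagggcu
miR-6928-5p: aGGGGAUUugcauggacugcacu
miR-6928-3p: aAGCUGUUccuguacucuccag
miR-7026-5p: uUCUGAGAccaugggguauau
miR-7026-3p: uGUGCUUUcuggucuuggcuuag

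No seed occurs in more than 1 of these 7 genes. Gm23935 and Gm24245 had no mature sequence to compare. Of the 10 mature sequences, 8 have a seed that no other mouse entry of that table holds. The exceptions are miR-6240, which shares its seed with miR-330-3p, and miR-5626-3p, which shares its seed with miR-6402. The share of unshared seeds over all mouse mature sequences was not computed, so nothing is read from this count. Mir330 was counted at 143 and 178 CPM (counts per 1000000 reads assigned to microRNA genes) in replicates 1 and 2, and Mir6402 at 0 reads in both. The mature sequence of Mir2137 holds 85.7% G and C, that of Mir6236 78.9% and that of Mir6240 69.2%, against 42.9% to 54.5% for the other 7. No stretch of 18 nt of any of the 10 mature sequences occurred on either strand of another GENCODE M21 transcript. Ribosomal RNA and genome sequence outside annotated transcripts were not searched, so resemblance to ribosomal RNA or to repeats was not tested for any of the 9 genes.

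The precursors below show the range of folds, with the mature parts in capitals.
Mir1960, chr5:30170739-30170816, plus strand: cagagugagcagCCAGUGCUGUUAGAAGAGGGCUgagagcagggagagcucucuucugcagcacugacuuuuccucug
Mir6240, chr5:114851948-114852064, plus strand: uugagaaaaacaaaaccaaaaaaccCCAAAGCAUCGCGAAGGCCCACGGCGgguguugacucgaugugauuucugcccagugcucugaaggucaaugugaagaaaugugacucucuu
Mir6928, chr11:101030340-101030409, plus strand: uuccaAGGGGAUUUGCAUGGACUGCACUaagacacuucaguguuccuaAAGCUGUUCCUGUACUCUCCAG
Mir7026, chr5:110666075-110666141, minus strand: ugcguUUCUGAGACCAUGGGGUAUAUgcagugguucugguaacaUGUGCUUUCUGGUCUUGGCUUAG

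Folding was predicted for each whole precursor, and a more negative energy per nt is a stronger fold. The Mir1960 precursor folded at -0.546 kcal/mol per nt with 76.9% of its bases paired, and 400 of the 455 genes with at least 10 reads had a weaker fold. The Mir6240 precursor stood at the other end with -0.211 kcal/mol per nt and 58.1% paired, and only 1 of the 455 had a weaker fold. Mir6928 followed at -0.269 kcal/mol per nt and 57.1% paired, with 4 weaker. The other 6 lay between -0.336 kcal/mol per nt for Mir7026 and -0.395 kcal/mol per nt for Gm23935 and Gm24245. The median over the 455 precursors was -0.434 kcal/mol per nt with 72.0% paired. Of the 9 precursors, 8 thus folded more weakly than that median, and Mir1960 folded more strongly. Gm23935 and Gm24245, of the same sequence, are both counted among the 8. Over all 1894 precursors with a sequence, with or without reads, the median was weaker, at -0.379 kcal/mol per nt with 66.1% paired. Gm23935, Gm24245 and Mir1960 folded more strongly than that wider median. From the 5th to the 95th percentile the 1894 ran from -0.578 to -0.247 kcal/mol per nt, and only Mir6240 of the 9 lay outside. From the 5th to the 95th percentile the 455 ran from -0.609 to -0.318 kcal/mol per nt, and only Mir6240 and Mir6928 lay outside. For the 311 let-7 genes and genes numbered below 1000 that range was -0.573 to -0.318. For paired bases the 455 ran from 59.6% to 82.0%, and Mir6236 (58.5%), Mir6240 and Mir6928 lay below. For Mir1960 the fold goes against the working name: 90.9% of the bases of its mature strand were paired, against a median of 82.6% over 745 mature sequences of genes with at least 10 reads. On this measure miR-7026-5p also lay above the median, at 85.7%, and the other 8 mature sequences lay below it, from 63.6% to 81.0%.

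**Figure D1:**
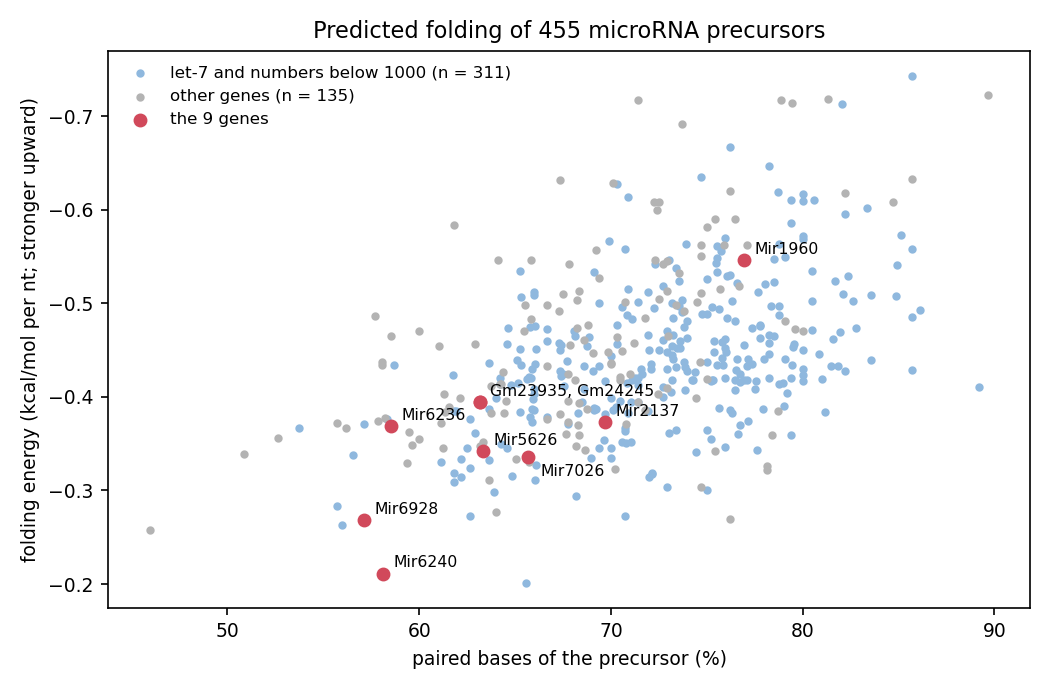
Predicted folding energy per nt (kcal/mol, stronger upward) against the share of paired bases (%) for the 455 precursors of genes with at least 10 reads; red points are the 9 genes, blue points are let-7 genes and genes numbered below 1000, and grey points are all other genes. Mir1960 sits at -0.546 kcal/mol per nt among the well-folded precursors, and Mir6240 at -0.211 near the bottom.

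Mir6928 and Mir7026 end exactly at a splice site. Both lie on the strand of their host gene, and 0 nt separate the last base of the precursor from the last base of the intron. Mir6928 closes an intron of 1151 nt in Atp6v0a1, which encodes a subunit of the vacuolar proton pump. Mir7026 closes an intron of 465 nt in Ep400, which encodes a chromatin remodelling ATPase. Their 5′ ends lie 1081 and 398 nt from the start of the intron, so only the 3′ end of either precursor coincides with an end of the intron. This position was usual among entries numbered Mir6896 to Mir7094, where 25 of the 26 genes with at least 10 reads had it, against 1 of 311 let-7 genes and genes numbered below 1000. Over all 455 genes with at least 10 reads, 33 had it (7.25%).

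The other genes had no such position. Mir1960 lies inside an intron of Hadhb, of the mitochondrial trifunctional protein of fatty acid oxidation, and Mir2137 inside an intron of Zfp185, which encodes a LIM domain protein. Both are on the host's strand, 1809 and 4890 nt from the nearest downstream splice site. Mir2137 spans chrX:72992079-72992144. Gm23935, at chr16:11144125-11144181, lies in an intron of Zc3h7a but on the opposite strand. No annotated gene overlaps Mir6236 (chr9:110281287-110281409), Mir6240, Mir5626 (chr9:70405694-70405753) or Gm24245 (chr4:139338304-139338360). The nearest genes are 7542 nt from Mir6236 (the long noncoding RNA Gm42775), 1599 nt from Mir6240 (4930519G04Rik), 1938 nt from Mir5626 (the cyclin gene Ccnb2) and 38 nt from Gm24245 (the microRNA gene model Gm25732).

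Libraries held 5317669 and 7128703 reads on the strand of microRNA genes, out of 11877442 and 14706415 reads in all, and 1 read equals 0.188 and 0.140 CPM. A count of 0 allows up to 3 reads, or 0.564 and 0.421 CPM. These limits and the intervals below reflect counting error alone, because copies made by PCR could not be set apart from separate molecules. The 9 kidney markers checked, such as Mir10a, Mir30a and Mir429, had means of 164 CPM (Mir192) to 154681 CPM (Mir10a), and endothelial Mir126a had a mean of 52093 CPM. Markers of liver (Mir122), muscle (Mir206), red cells (Mir451a) and myeloid cells (Mir223) had means of 191, 277, 274 and 367 CPM. Of 5 neuronal entries Mir9-3 had 17 and 12 reads, Mir124a-1 and Mir9-2 had 0 reads and 1 read, and Mir124a-2 and Mir124a-3 had none. The part of other cell types in the levels below was not tested. All 9 genes described here had at least 10 reads over both libraries, as did 455 of the 1973. Read numbers of a gene are those on its own strand unless the opposite strand is named.

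The 9 genes together held 1629 reads in replicate 1 and 1490 in replicate 2, which is 306 and 209 CPM, or 0.0306% and 0.0209% of the microRNA reads. Gm23935, Mir6236 and Mir6240 carried 94.9% of those reads. Gm23935 was counted at 128 and 104 CPM from 682 and 740 reads, and ranked 170 by mean CPM among all 1973 genes. Mir6236 was counted at 125 and 87.7 CPM from 665 and 625 reads, and ranked 177. Replicate 1 was the higher library for both. Mir6240 was counted at 32.3 and 10.7 CPM from 172 and 76 reads. In whole kidney, fewer cells that make an RNA and less of it per cell cannot be told apart.

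The remaining 6 genes were counted from 11 to 53 reads each, in sum 110 reads in replicate 1 and 49 in replicate 2. Gm24245 had 35 and 18 reads (6.58 and 2.52 CPM), and Mir5626 had 27 and 19 reads (5.08 and 2.67 CPM). Mir7026 had 16 and 5 reads (3.01 and 0.701 CPM), and Mir2137 had 11 and 4 reads (2.07 and 0.561 CPM). These 4 genes were each above the 3 reads that a count of 0 allows. Mir1960 had 12 reads and 1 read (2.26 and 0.140 CPM), and Mir6928 had 9 and 2 reads (1.69 and 0.281 CPM), so that both lay under that limit in replicate 2.

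**Figure D2:**
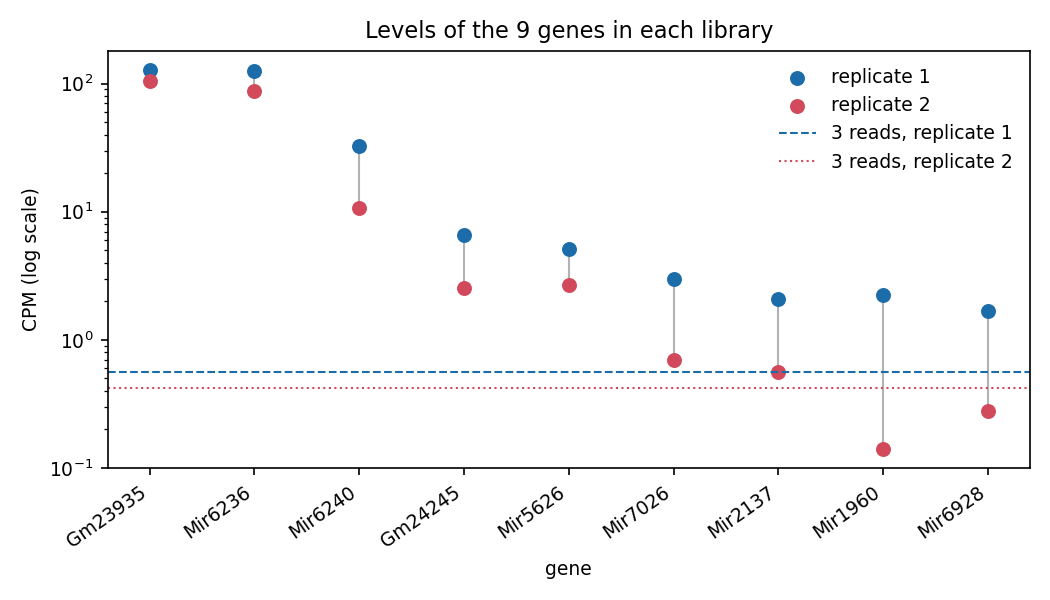
CPM on a log scale (y axis) of the 9 genes (x axis, by falling mean CPM) in replicate 1 (blue) and replicate 2 (red); grey lines join the libraries, and horizontal lines mark 3 reads in each. Every blue point lies above its red point, and the red points of Mir1960 and Mir6928 lie below the line of 3 reads in replicate 2.

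Precursors differ in length, so the order of levels was also taken per 100 nt of precursor. Fragments were under 30 nt, so reads need not rise with precursor length. Gm23935 came first with 225 and 182 CPM per 100 nt, then Mir6236 with 102 and 71.3, then Mir6240 with 27.6 and 9.11. On this scale the libraries of Gm23935 and Mir6236 did not overlap, nor did those of Mir6236 and Mir6240. Below them Gm24245 (11.5 and 4.43), Mir5626 (8.46 and 4.44), Mir7026 (4.49 and 1.05), Mir2137 (3.13 and 0.850), Mir1960 (2.89 and 0.180) and Mir6928 (2.42 and 0.401 CPM per 100 nt) followed. In this stretch, from Mir6240 down, each gene overlapped the next, so their order on this scale is not settled by 2 libraries. In CPM, without division by length, Gm23935 (128 and 104) and Mir6236 (125 and 87.7) overlapped, so their separation rests on precursor length. Mir6240 (32.3 and 10.7 CPM) lay above Gm24245 (6.58 and 2.52 CPM) without overlap.

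All 9 genes had fewer CPM in replicate 2, the direction for which they were chosen, and 32.3% of the 455 genes did so. A negative log2 ratio means fewer CPM in replicate 2. On this scale the median over the 455 genes was 0.16, not 0. Scaling by trimmed mean of M-values (TMM), which assumes that most genes do not differ, moved that median to 0.02. A drop of 2-fold or more was seen for 6 of the 9 and for 4.18% of the 455 genes. With TMM it was seen for 7 of the 9 and for 5.05% of the 455, the added member being Mir5626. Since the drop chose the members, nothing is read from these counts.

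Mir6240 had a log2 ratio of -1.60 with an exact 95% interval of -2.01 to -1.20. Among 63 other genes with 124 to 496 reads, a range set around its own 248, the lowest log2 ratio was -0.44. Among the 287 other genes with 100 reads or more, the lowest were Mir741 (-0.85), Mir7b (-0.70) and Mir375 (-0.69). Mir6240 lay below all of them. It was chosen for a low ratio, and the ranges of reads were set after the values were seen. Nothing is therefore read from its place.

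Mir6236 had a log2 ratio of -0.51 with an interval of -0.67 to -0.35, and Gm23935 one of -0.31 with an interval of -0.46 to -0.15. Both drops were under 1.5-fold, which the other 7 of the 9 and 10.3% of the 455 genes passed. Among 71 other genes with 645 to 2844 reads, the lowest log2 ratio was -0.36, so Mir6236 lay outside that range and Gm23935 inside it. Both genes were chosen on this ratio, so nothing is read from these places either.

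The 6 smaller genes had larger but loosely set ratios. Their log2 ratios were -4.01 for Mir1960 (interval -9.43 to -1.25), -2.59 for Mir6928 (-5.84 to -0.32), -2.10 for Mir7026 (-3.90 to -0.59) and -1.88 for Mir2137 (-3.99 to -0.13). Gm24245 stood at -1.38 (-2.29 to -0.52) and Mir5626 at -0.93 (-1.86 to -0.03). The intervals are wide, and several reach close to 0. Of 121 other genes with the same 11 to 53 reads, 11 were lower by 2-fold or more and 19 were higher by 2-fold or more, so large ratios in both directions were common at this depth.

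**Figure D3:**
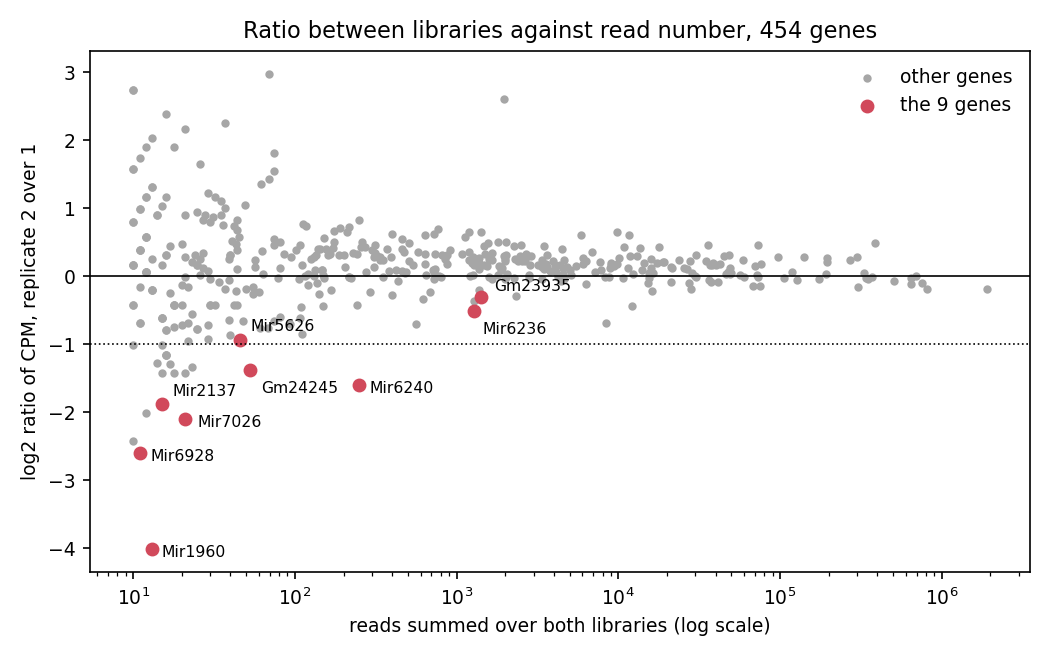
Log2 ratio of CPM, replicate 2 over replicate 1 (y axis), against reads summed over both libraries (x axis, log scale) for 454 genes with at least 10 reads, the 9 genes in red and all others in grey; Mir302c, at 0 reads in replicate 1, has no finite ratio. Ratios fan out in both directions at few reads, and Mir6240 lies at -1.60 below the grey points around it.

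In all, 13 genes outside the 9 were also lower by 2-fold or more, none with over 23 reads. The 5 with the lowest ratio were Mir743 (8 and 2 reads, log2 ratio -2.42), Mir7033 (9 and 3 reads, -2.01), Mir504 (14 and 7 reads), Mir1b (12 and 6 reads) and Mir7685 (10 and 5 reads), the last 3 all at -1.42. They were named for their low ratio alone, and each had 10 to 21 reads.

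Gm23935 and Gm24245 have the same sequence over all 57 nt, and so does Gm24270. Together with Gm24187 (1 base changed, added or removed), Gm25911 (2) and Gm23388 (4) they make up 6 near copies on 6 chromosomes, each sharing at least 1 stretch of 18 nt with Gm23935. All other 7 genes of the 9 share no such stretch with another microRNA gene. Of the 455 genes with at least 10 reads 110 (24.2%) share one, and of the 9 genes 2 (22.2%), so this is a common state. The copies hold 73.7% G and C in Gm23935 and Gm24245, a value that 13 of the 455 precursors exceeded. Reads mapping to several places were tallied apart from the genes, so a read lying wholly inside the 57 nt and matching them exactly could not be assigned to Gm23935, Gm24245 or Gm24270. Which reads were counted there cannot be seen from the counts, and the levels of these genes are uncertain.

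The reads were still spread unevenly. Gm23935 took 89.0% of the reads of the 6 copies in replicate 1 and 93.0% in replicate 2, while Gm24270, of the same sequence, had 5 and 0 reads. The 4 copies outside the 9 genes had 49 and 38 reads, or 9.21 and 5.33 CPM, a log2 ratio of -0.79 with an interval of -1.44 to -0.15. Singly they had 22 and 22 reads (Gm23388, -0.42), 12 and 10 (Gm25911, -0.69) and 10 and 6 (Gm24187, -1.16). Each of the 3 intervals includes 0, while that of Gm24270 has an upper bound of -0.30 and, with 0 reads in replicate 2, no lower bound. Over all 6 copies the CPM were 144 and 112, a log2 ratio of -0.37. Gm25732, which lies 38 nt before Gm24245 on the same strand and is not among the copies, went the other way with 2 and 10 reads (log2 ratio 1.90, interval -0.33 to 5.13).

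**Figure D4:**
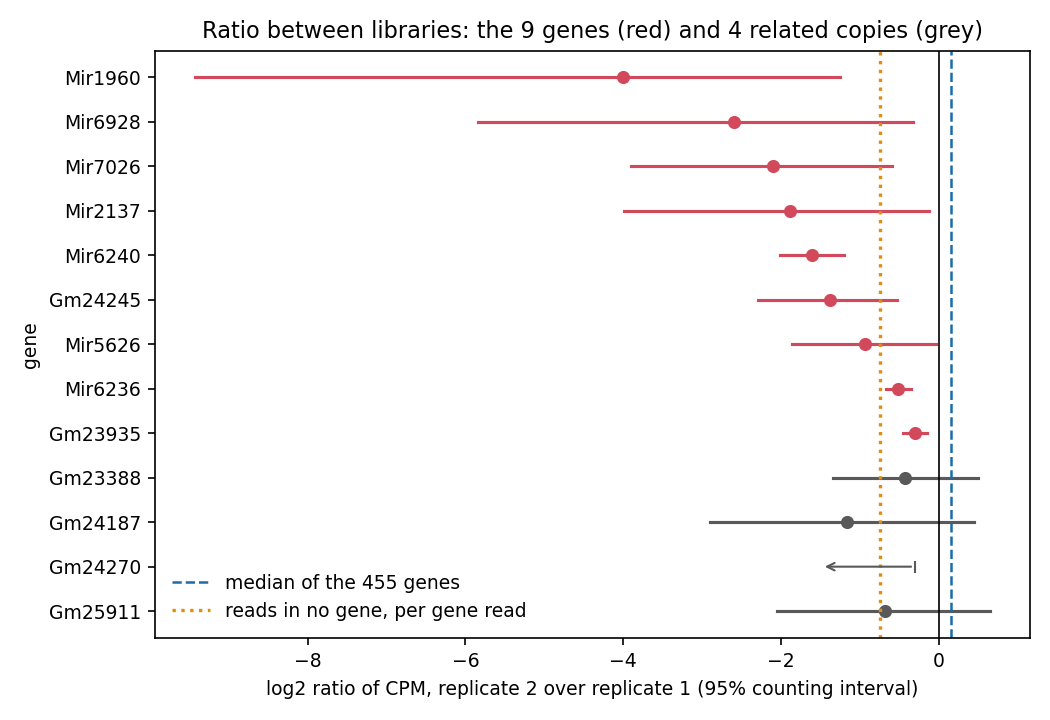
Log2 ratio of CPM, replicate 2 over replicate 1 (x axis), with exact 95% counting intervals for the 9 genes (red) and for 4 near copies of Gm23935 (grey); the arrow for Gm24270 starts at the upper bound of its interval, since it had 0 reads in replicate 2. The dashed line is the median of the 455 genes at 0.16, and the dotted line is the ratio of reads in no gene at -0.75.

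Reads that fell in no gene moved the same way as the 9 genes. They numbered 795873 in replicate 1 and 635276 in replicate 2, which is 6.70% and 4.32% of all reads. Per read in microRNA genes this is 0.150 and 0.0891, a log2 ratio of -0.75. Reads mapping to several places stood at 0.625 and 0.522 per gene read (log2 ratio -0.26), and unmapped reads at 0.459 and 0.452 (-0.02). In the order of ratios, the value of reads in no gene fell between Mir5626 (-0.93) and Mir6236 (-0.51). Since the 9 genes were chosen on this ratio, nothing is read from its place. Whether these reads and the 9 genes have a common source was not tested.

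No read of any of the 9 genes lay on the opposite strand in either library. With 1422 reads for Gm23935, this allows an opposite-strand share of up to 0.211%, and with 11 reads for Mir6928 up to 27.3%. Over all genes the opposite strand held 2.14% and 2.24% of the reads. Of the 455 genes, 409 had no opposite-strand read either, so this is a common state.

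Entries from the same parts of the catalogue were set beside the 9. Among 26 genes from Mir6896 to Mir7094 with at least 10 reads, 24 are not among the 9, and their median log2 ratio was -0.05, with 12 lower in replicate 2, 3 lower by 2-fold and 2 higher by 2-fold. Their most abundant were Mir6944 (50 and 89 reads, log2 ratio 0.41) and Mir7083 (38 and 30 reads, -0.76), followed by Mir6951 (16 and 13 reads) and Mir7069 (12 and 17 reads). The 31 genes outside the 9 that end at a splice site had a median of -0.16, between -2.01 and 1.04. Of these, 16 were lower in replicate 2, 4 lower by 2-fold or more and 1 higher by 2-fold or more. Over the 455 genes the same counts were 147, 19 and 30. From Mir1957 to Mir1969 the 3 other genes with at least 10 reads, Mir1964, Mir1968 and Mir1969, were at 0.28, 0.10 and 1.23. Mir5622, the only other such gene from Mir5620 to Mir5627, had 6 and 4 reads, a log2 ratio of -1.01 with an interval of -3.28 to 1.07. No other gene from Mir2133 to Mir2146 or from Mir6236 to Mir6244 reached 10 reads, and none of 11 symbols listed as pieces of ribosomal or transfer RNA matched a row. The 79 rows without a symbol could not be searched in this way. All 455 genes with at least 10 reads had a symbol.

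Gm-named genes had few reads on their own strand. Of 843 such genes 44 had any such read and 14 had at least 10. Some rows held reads on the opposite strand only, such as Gm25301 (56613 and 70018 reads) and Gm25927 (25179 and 38899 reads). The median log2 ratio was -0.22 over the 12 of those 14 that are not among the 9. Of those 12, 8 were lower by any amount, 2 were lower by 2-fold or more and 3 were higher by 2-fold or more. Gm26117 led them with 57 and 50 reads (log2 ratio -0.61), before Gm23134 (28 and 32 reads, -0.23), Gm23388 and Gm23450 (17 and 20 reads, -0.19). Over the catalogue, the 111 genes numbered 1900 or above and not among the 9 had a median log2 ratio of 0.09, and the 311 let-7 genes and genes numbered below 1000 had one of 0.17. Median read numbers differed as well, at 25 reads for all 118 late entries against 1810 for the early ones.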

How the data were processed

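The authors deposited raw counts of reads per microRNA gene for each library, on assembly mm10 with annotation M4 per the accompanying text files. For the aligner, the counter and any trimming, nothing was given in the sources used here. In all 1973 gene rows the first count column equals the sum of the other 2, so these were read as either strand, the gene's strand and the opposite strand. CPM were computed from gene-strand reads of gene rows; the rows naming no gene (55.2% and 51.5% of reads) were kept out. Symbols and positions came from GENCODE M21 (1894 rows matched, 79 did not), sequences to print from RefSeq on GRCm38.p6, and folds from RNAfold 2.7.2.

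Ratios are of CPM, with exact conditional binomial 95% intervals (SciPy 1.17.1). The computation was checked on simulated counts that held counting error alone, so the check does not cover other spread between libraries. TMM factors (edgeR 4.0.16) and DESeq2 1.42.0 size factors were alternatives. No test was run: 1 library stands on each side and the members were chosen on the ratio. The members and lists were chosen with earlier results of these data known. Genes named are the 9, the 5 others of lowest ratio with at least 10 reads, up to 4 of highest mean CPM per list, and genes overlapping or sharing 18 nt with the 9; Mir741, Mir7b, Mir375, Gm25732, Mir330 and Mir6402 were added after their values were seen, as were the ranges of read numbers used beside the ratios.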

Additional observations from a re-analysis of the deposited data

How the results depend on the processing

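The log2 ratios of the 9 genes were recomputed under 5 other settings each: TMM, DESeq2 size factors, all reads of the library as the denominator, reads on either strand, and log2(CPM + 1). All 45 values stayed below 0, and 43 stayed inside the counting interval of the reported value. The exceptions were Mir6236 (-0.67) and Gm23935 (-0.47) with DESeq2 size factors. These are not separate checks. The setting log2(CPM + 1) cannot change a sign, and each other setting shifts all 9 ratios by the same amount. Among those others, only the denominator of all reads raised the ratios. The interval holds counting error alone, so it is wide for genes with few reads and does not measure scaling. The added 1 in log2(CPM + 1) brought Mir1960 from -4.01 to -1.51. The number of the 9 lower by 2-fold or more was 6, and 7 with TMM, with DESeq2 or at 1.5-fold. Over the 455 genes tested, 19 were lower by 2-fold or more, 23 with TMM and 24 with DESeq2, and 47 were lower by 1.5-fold or more. Without the filter on low counts, where only 1 read in each library was asked for, 44 were lower by 2-fold or more. That count comes from a different set of genes. The log2 ratio of reads in no gene was -0.75 per gene read, -0.89 with TMM, -0.63 as a share of all reads and -0.61 as a share of mapped reads. Depth limits the 6 smaller genes, with 11 to 53 reads each. No paired analysis was possible because the series holds 1 group.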
